A study of Mus musculus with 5 samples.

Results

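The genes Col1a1, Col1a2, Col3a1, Col5a1 and Col5a2, which encode the chains of the fibrillar collagens I, III and V, were read by single-cell RNA sequencing (scRNA-seq) in the mouse temporomandibular joint (TMJ) disc, the fibrocartilage pad between jaw and skull. They were taken by symbol and are 5 of the 27998 genes counted. These genes and the comparisons made were chosen with earlier results of these data known. Unique molecular identifiers (UMIs, each marking 1 captured transcript) were summed over stromal, synovial lining, mural, endothelial and macrophage cells, and given as CPM, the UMIs of a gene scaled to a fixed total of all UMIs in that class of cells and library. The classes were set from marker genes other than these 5, in 51688 of 51948 barcodes that passed the filters.

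Each of 5 conditions had 1 library from C57BL/6 mice labelled WT. Normal discs were taken at 3 d, as newborn discs, at 3 w, as juvenile ones, at 16 w, as adult ones, and at 78 w, as aged ones. By the injury model of the study's methods, injured discs had their anterior band pierced by needles of 31 Gauge at 5 weeks of age. They were taken 2 weeks later, at 7 weeks, while the methods give a shorter time for histology after tamoxifen. Discs were digested with Pronase and then Collagenase P. Per the study's methods, pups of both sexes went into a single suspension at 3 d and the mice of the other normal stages were males, and the puncture surgery was described in Myh11-CreER; Tm fl/- mice although the label of the injured library reads WT. How many animals each library held is not given in the sources used here. The age of 78 w is that of the labels, while the name of the deposited data of this library points to about 16 months. No uninjured library of 7 weeks was among the 5, so injury, age and library cannot be told apart. With 1 library per condition there was no replicate check and no test was made. All intervals below are exact 95% intervals that cover counting error only, and a gene is counted as higher or lower where its CPM differed by at least 2-fold.

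Fibrillar collagens are secreted as procollagens of 3 chains wound into a triple helix, which assemble into the fibrils that carry tension in tendon, skin and joint discs. Collagen I, the bulk of these fibrils, holds more chains from Col1a1 than from Col1a2. Collagen III is built from Col3a1 chains alone and is abundant in extensible and newly laid tissue, vessel walls and synovium. Collagen V, from Col5a1 and Col5a2, is a minor component inside collagen I fibrils that starts fibril formation and limits fibril width.

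On the mouse genome GRCm38 (GENCODE M21) the 5 genes lie on 4 chromosomes. Col1a1 spans chr11:94936224-94953042 and Col1a2 chr6:4504814-4541544, both on the plus strand. Col5a1 spans chr2:27886425-28039514 on the plus strand. Col3a1, at chr1:45311538-45349706 on the plus strand, and Col5a2, at chr1:45374321-45503282 on the minus strand, point towards each other with 24614 bases and 0 protein-coding genes between their 3′ ends. Annotated genes that overlap them were not among the genes counted. The windows of 250 bases before to 50 bases after the RefSeq start sites are shown for the 3 members present in the promoter table (GRCm38.p6), a chain gene of each collagen, so that their base content and motifs can be compared. Capitals mark matches on either strand to a CCAAT box, to a TATA box written as TATAAA, or to a GC box of the kind Sp1 binds, written as GGGCGG. These motifs do not overlap each other in the windows shown. The windows are chr6:4505368-4505667, chr1:45311288-45311587 and chr2:27886175-27886474, all on the plus strand. The Col1a2 window lies inside the GENCODE span of its gene, so its positions below hold for the RefSeq start only.
Col1a2: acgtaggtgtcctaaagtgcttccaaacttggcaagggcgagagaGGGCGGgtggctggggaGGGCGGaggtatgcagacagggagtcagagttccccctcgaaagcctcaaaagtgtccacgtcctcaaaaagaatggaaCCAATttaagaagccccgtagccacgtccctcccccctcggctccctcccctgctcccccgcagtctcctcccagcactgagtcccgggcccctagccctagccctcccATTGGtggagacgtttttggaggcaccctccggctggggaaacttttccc
Col3a1: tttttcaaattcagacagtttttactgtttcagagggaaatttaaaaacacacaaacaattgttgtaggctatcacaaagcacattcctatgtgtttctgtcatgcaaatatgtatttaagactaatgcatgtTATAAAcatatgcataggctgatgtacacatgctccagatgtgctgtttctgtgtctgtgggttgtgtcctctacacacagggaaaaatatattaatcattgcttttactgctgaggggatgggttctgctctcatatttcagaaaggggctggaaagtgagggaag
Col5a1: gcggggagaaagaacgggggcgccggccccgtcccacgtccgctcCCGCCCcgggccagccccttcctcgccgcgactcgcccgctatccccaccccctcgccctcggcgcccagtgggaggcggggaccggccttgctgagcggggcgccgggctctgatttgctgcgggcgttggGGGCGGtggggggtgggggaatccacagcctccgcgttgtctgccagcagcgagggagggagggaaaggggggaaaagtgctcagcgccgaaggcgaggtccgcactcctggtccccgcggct
The Col1a2 window held the CCAAT box at 109 bases before the start, the same motif in reverse at the start site, and the GC box at 205 and 188 bases before it. The Col3a1 window held the TATA box at 117 bases before the start and none of the other motifs. The Col5a1 window held the GC box at 73 bases before the start and its reverse at 205 bases before it. GC content was 61% for Col1a2, 37.7% for Col3a1 and 75% for Col5a1, against quartiles of 45.7%, 52.7% and 61.7% over 32851 promoters, so the Col3a1 window was AT-rich and the Col5a1 window GC-rich. Of all promoters, 37.4% held the CCAAT box, 13.6% the TATA box and 35.7% the GC box, so each motif is common and a match is a description of letters only.

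Cells kept per library ranged from 8467 to 14959, and the median cell held 7721 UMIs at 3 d, 12496 at 3 w, 9234 at 16 w, 9466 at 78 w and 3299 in the injured library, the shallowest. Pairs of libraries shared between 19 and 39 barcodes. Stromal cells numbered from 6750 to 10286 per library, lining cells from 81 to 499, mural cells from 112 to 347, endothelial cells from 376 to 1079 and macrophages from 114 to 566. The 10 stromal markers summed to 7156 CPM in the stromal class at 3 d and to between 22272 and 44429 CPM in the other libraries. Erythroid markers in that class summed to 926 CPM at 3 d and 236 CPM in the injured library, against at most 25.4 CPM elsewhere. 3 unnamed clusters lie outside all 5 classes, one of them led by haemoglobin and cell-cycle genes and found mainly at 3 d.

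In stromal cells all 5 chains were high in newborn and juvenile discs, low in adult and aged discs, and high in the injured discs of 7 weeks. Col1a1, the gene of the main collagen I chain, was at 9789.9 CPM at 3 d, 12977 CPM at 3 w, 936 CPM at 16 w, 906 CPM at 78 w and 24416 CPM in the injured library. Col1a2, the gene of the partner chain, was at 10140.0, 16247, 1885, 1755 and 12057 CPM in the same order. Both collagen I genes were thus lower in adult and aged than in young or injured discs, and the injured library was highest for Col1a1 while 3 w was highest for Col1a2. Col3a1, the gene of the single collagen III chain, was at 8358 CPM at 3 d, 5152 CPM at 3 w, 612 CPM at 16 w, 1001 CPM at 78 w and 4499 CPM in the injured library. Of the collagen V genes, Col5a1 was at 844, 341, 133, 176 and 364 CPM and Col5a2 at 1480.3, 1480.4, 417, 429 and 1090.5 CPM. The newborn library was therefore highest for Col3a1 and Col5a1, and the adult library lowest for both collagen V genes and Col3a1. The widest interval among these levels relative to its value, for Col5a1 in the injured library, ran from 357 to 372 CPM.

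The 5 chains together took 3.06% of all stromal UMIs at 3 d, 3.62% at 3 w, 0.398% at 16 w, 0.427% at 78 w and 4.24% in the injured library. Ordered by UMIs among all genes in stromal cells, Col1a1 stood at place 5 at 3 d and 3 w, 169 at 16 w, 172 at 78 w and 2 in the injured library. Col1a2 stood at places 4, 4, 106, 110 and 4, and Col3a1 at 9, 17, 204, 161 and 23. Col5a1, the least abundant member, moved between places 157 and 945 and Col5a2 between 108 and 304. Counts of UMIs at the 3′ end are not divided by gene length, since each UMI stands for a transcript, but capture may differ between genes, so ratios between chains are read across libraries only.

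**Figure D1:**
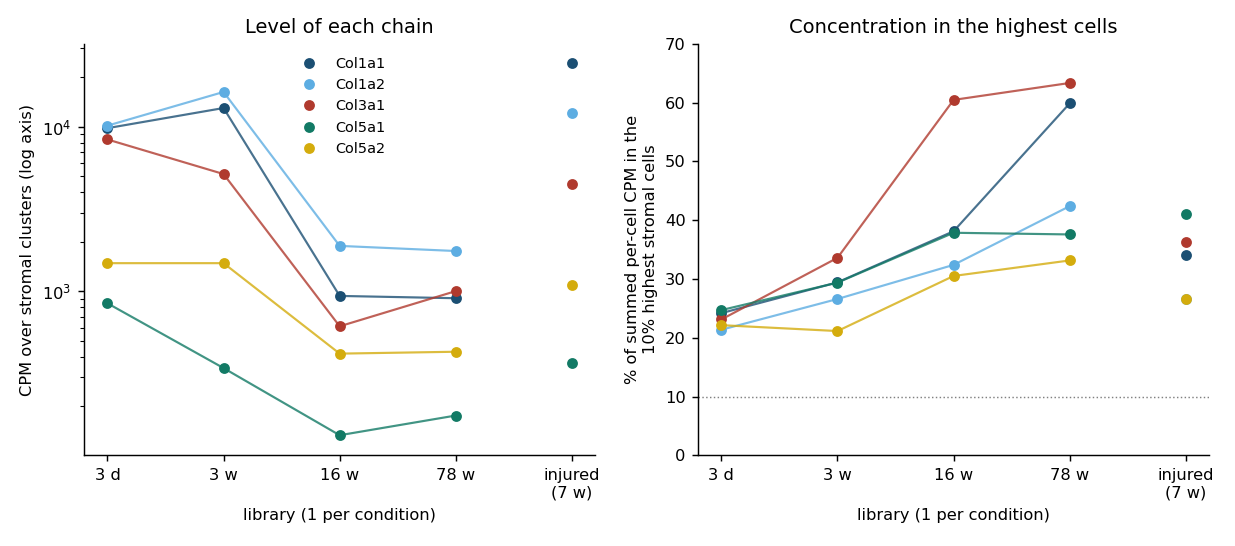
The left panel plots the stromal level of each of the 5 genes in CPM on a log axis for the 5 libraries, 1 point per library, with lines joining the normal ages only. The right panel plots the share, in percent, of the summed per-cell CPM held by the 10% of stromal cells with the highest level. Its dotted line is at the 10% that equal cells would give with no counting error, and low counts raise the share. All genes dip at 16 w and 78 w on the left, while the share rises to 59.9% for Col1a1 and 63.4% for Col3a1 at 78 w on the right.

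Between newborn and juvenile discs the members went different ways. Col1a1 was 1.33-fold higher at 3 w than at 3 d (interval 1.32 to 1.33) and Col1a2 1.60-fold higher (1.60 to 1.61). Col3a1 was 1.62-fold lower (1.62 to 1.63) and Col5a1 2.48-fold lower (2.45 to 2.51). Col5a2 held its level, with a ratio of 1.00 (0.993 to 1.01), so the partner genes of collagen V parted in these libraries. The stromal cells of these ages were spread differently over 4 clusters, described further on, with cluster 3 at 39.2% of stromal cells at 3 d and 11.2% at 3 w, cluster 1 at 54.5% and 35.8%, cluster 2 at 6.05% and 33.7% and cluster 4 at 0.321% and 19.4%. Within clusters the direction could turn, since Col3a1 was 1.16-fold higher at 3 w in cluster 3 and Col1a1 stood at a ratio of 0.934 in cluster 1. By the 2-fold rule 1 member was lower, against 18.3% of 12906 genes, and 0 were higher, against 16.7%. The members' median log2 ratio was 0.00 and that of all genes -0.01.

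Between juvenile and adult discs every member was lower, and the collagen I gene Col1a1 by the most. The fold was 13.9 for Col1a1 (13.8 to 14.0), 8.62 for Col1a2 (8.57 to 8.66), 8.42 for Col3a1 (8.34 to 8.50), 2.56 for Col5a1 (2.50 to 2.61) and 3.55 for Col5a2 (3.50 to 3.59). Collagens I and III thus differed by over 8-fold and the collagen V genes by under 4-fold. All 5 members were at least 2-fold lower, against 5.79% of 12195 genes, and 0 were higher, against 5.21%. Their median log2 ratio was -3.07 and that of all genes -0.10.

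Between adult and aged discs no member differed by 2-fold. The ratio of 78 w to 16 w was 0.968 for Col1a1 (0.959 to 0.978), 0.931 for Col1a2 (0.924 to 0.937) and 1.03 for Col5a2 (1.01 to 1.04). Col3a1 was 1.64-fold higher (1.62 to 1.65) and Col5a1 1.32-fold higher (1.29 to 1.35). So 0 members were lower, against 1.33% of 11908 genes, and 0 higher, against 2.02%. The median log2 ratio was 0.04 for the members and -0.06 for all genes. Set against the newborn disc, the aged disc was lower in all 5 members, against 20.5% of 12834 genes, with 0 higher, against 14.5%. These folds were 10.8 for Col1a1, 5.78 for Col1a2, 8.35 for Col3a1, 4.81 for Col5a1 and 3.45 for Col5a2, with a median log2 ratio of -2.53 against -0.15 for all genes. With clusters 1 and 3 only, the ratio of 78 w to 3 d was 0.156 for Col1a1 and 0.205 for Col3a1, where the whole class gave 0.0926 and 0.120.

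The injured discs, by the study's methods of an age between the 3 w and 16 w libraries, are set beside both. Against 16 w, Col1a1 was 26.1-fold higher (25.9 to 26.3), Col1a2 6.40-fold (6.36 to 6.44), Col3a1 7.35-fold (7.27 to 7.43), Col5a1 2.73-fold (2.66 to 2.81) and Col5a2 2.61-fold (2.57 to 2.65). All 5 members were at least 2-fold higher, against 5.64% of 11276 genes, and 0 were lower, against 14.5%. The median log2 ratio was 2.68 for the members and -0.31 for all genes. Against 3 w, Col1a1 was 1.88-fold higher (1.88 to 1.89) while Col1a2 stood at a ratio of 0.742 (0.739 to 0.745), Col3a1 at 0.873 (0.868 to 0.879), Col5a1 at 1.07 (1.04 to 1.09) and Col5a2 at 0.737 (0.728 to 0.746). Over the whole class 0 members were higher, against 4.91% of 11492 genes, and 0 were lower, against 17.6%. The median log2 ratio was -0.20 for the members and -0.37 for all genes. Single clusters differed from the class, since Col1a1 passed the 2-fold line in clusters 1 and 3. Its CPM rose from 11538 to 31247 and from 7588 to 26293 there. Clusters 2 and 4 stayed under that line, with 11771 against 16827 and 18603 against 23382. Cluster 4 made up 24.8% of stromal UMIs at 3 w but 13.3% after injury.

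Over genes with at least 100 UMIs in both libraries, the median log2 ratio of all genes was -0.27 for injured against 3 w and -0.21 for injured against 16 w, and within 0.1 of 0 in the other comparisons. Relative to that shift, Col1a1 was 2.27-fold higher in the injured than in the 3 w discs, past the 2-fold line, and Col3a1 turned from a ratio below 1 to one of 1.05. Col1a2 and Col5a2 stayed below 1 on that scale, at 0.895 and 0.888. Col5a1 was at 1.29. So Col1a1 stood furthest above the juvenile level in the injured discs on both scales. Macrophage markers in the stromal class summed to 85.6 CPM in the injured library and to at most 25.9 CPM in the others, and their part in the result was not tested.

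The balance between chains moved with the libraries. In stromal cells Col1a1 gave 0.965 UMIs for each Col1a2 UMI at 3 d (0.963 to 0.968), 0.799 at 3 w, 0.497 at 16 w, 0.517 at 78 w and 2.03 in the injured library (2.02 to 2.03). The injured library was the only one with more Col1a1 than Col1a2 UMIs in stromal cells. The same ratio reached 2.40 in lining cells (2.29 to 2.51) and 2.27 in mural cells (2.11 to 2.45) of the injured library, while in the 4 normal libraries it lay between 0.714 and 1.03 in lining cells and between 0.579 and 0.890 in mural cells. It was also 2.28 in macrophages, 1.97 in endothelial cells and 2.24 in erythroid cells of the injured library, classes that should make little collagen. Scored doublets held 47.8% of mural Col1a1 UMIs there, and without them the mural ratio was 1.84 (1.68 to 2.02). The high ratio was thus common to the whole injured library, and its presence in lining and mural cells cannot be told apart from stromal RNA in their barcodes.

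Collagen III against collagen I gave another order. Col3a1 gave 0.854 UMIs for each Col1a1 UMI at 3 d in stromal cells, 0.397 at 3 w, 0.654 at 16 w, 1.10 at 78 w (1.09 to 1.12) and 0.184 in the injured library (0.183 to 0.185). The aged disc was the only library whose stromal cells held more Col3a1 than Col1a1 UMIs. The 2 collagen V genes also changed their balance, with 0.570 Col5a1 UMIs for each Col5a2 UMI at 3 d, 0.230 at 3 w, 0.319 at 16 w, 0.410 at 78 w and 0.334 in the injured library. Col5a2 against Col3a1, its neighbour on chromosome 1, stood at 0.177 at 3 d, 0.287 at 3 w, 0.682 at 16 w, 0.428 at 78 w and 0.242 in the injured library. Collagen V against collagen I, as Col5a1 UMIs for each Col1a1 UMI, was lowest in the injured library at 0.0149 and highest at 78 w at 0.194, with 0.0263 at 3 w, when collagen I was also high.

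**Figure D2:**
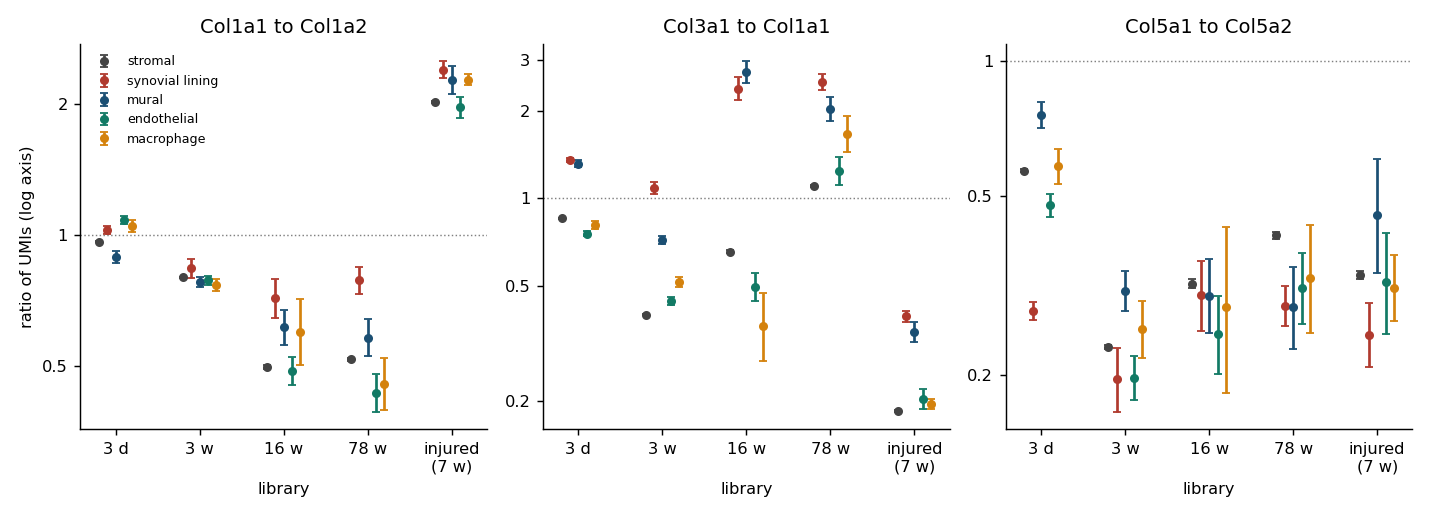
Ratios of UMIs between 3 pairs of chains, on a log axis, are plotted against the 5 libraries, with 1 point per cell class and library, bars for the 95% counting intervals and a dotted line at 1. Col1a1 to Col1a2 stands at 2.03 in injured stromal cells and below 1 in the stromal cells of the 4 normal libraries, and Col3a1 to Col1a1 is higher in lining and mural cells than in stromal cells of the same library.

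The stromal class held 4 clusters, named here by number and leading genes because cluster 4 had Col2a1, a cartilage collagen, among its 10 leading genes. Cluster 1 was led by Spp1, Coch, Chad, Kera and the tendon gene Tnmd, and cluster 2 by Aoc2, Cilp2 and Cilp. Cluster 3 was led by Pi16, Clec3b, Mfap5 and Eln, and cluster 4 by Ibsp, Lcn2 and Col2a1. Some genes, among them Spp1, Chad and Ibsp, were among the 10 leading genes of both cluster 1 and cluster 4. The 5 members and the 69 genes of the lists were left out when the clusters were made. Cluster 4 had 33 cells at 3 d and cluster 2 had 622.

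Col3a1 was the member that differed most by cluster. In cluster 3 it was at 9380 CPM at 3 d, 10874 CPM at 3 w, 2476 CPM at 16 w, 2883 CPM at 78 w and 10290 CPM in the injured library. In cluster 1 the same gene was at 7705, 4624, 297, 1141 and 4605 CPM. Cluster 3 was the highest of the 4 clusters in Col3a1 in every library, and at 16 w it held 39.5% of stromal Col3a1 UMIs with 11.3% of stromal cells. Col1a1 had another order, highest at 3 d and in the injured library in cluster 1, at 12357 and 31247 CPM, and at 3 w in cluster 4, at 18603 CPM. At 16 w the 4 clusters lay close together for Col1a1, between 776 and 1253 CPM.

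Shares of all genes past 2-fold were not counted by cluster, only for the whole class, with 5.79% of 12195 genes lower at 16 w than at 3 w. In each of the 4 clusters all 5 members were at least 2-fold lower at 16 w than at 3 w. The smallest of these differences was that of Col5a1 in cluster 3, with a ratio of 0.480, and the largest that of Col1a1 in cluster 4, which was 16.7-fold lower. From 16 w to 78 w the clusters parted. In cluster 1 Col3a1 was 3.85-fold higher (3.76 to 3.94), Col1a1 1.75-fold (1.72 to 1.78), Col5a1 1.68-fold, Col1a2 1.44-fold and Col5a2 1.28-fold. In clusters 2 and 4 Col1a1 stood at ratios of 0.606 (0.594 to 0.619) and 0.534 (0.521 to 0.546), and Col1a2 at 0.716 and 0.625. In cluster 3 Col1a1 was 1.15-fold higher. Thus the near-flat Col1a1 level of the whole class between 16 w and 78 w joined higher levels in clusters 1 and 3 with lower levels in clusters 2 and 4. The weights of the clusters also differed, with cluster 1 at 36.5% of stromal UMIs at 16 w and 25.1% at 78 w and cluster 3 at 9.77% and 13.2%, and cluster 3 held 13.1% of stromal Col1a1 UMIs at 16 w and 20.9% at 78 w. In the injured library all members exceeded 16 w in every cluster, with 3 ratios under 2, namely Col5a1 in clusters 2 and 4 (1.61 and 1.91) and Col5a2 in cluster 2 (1.80). Over the whole class 5.64% of 11276 genes were at least 2-fold higher in the injured library than at 16 w.

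**Figure D3:**
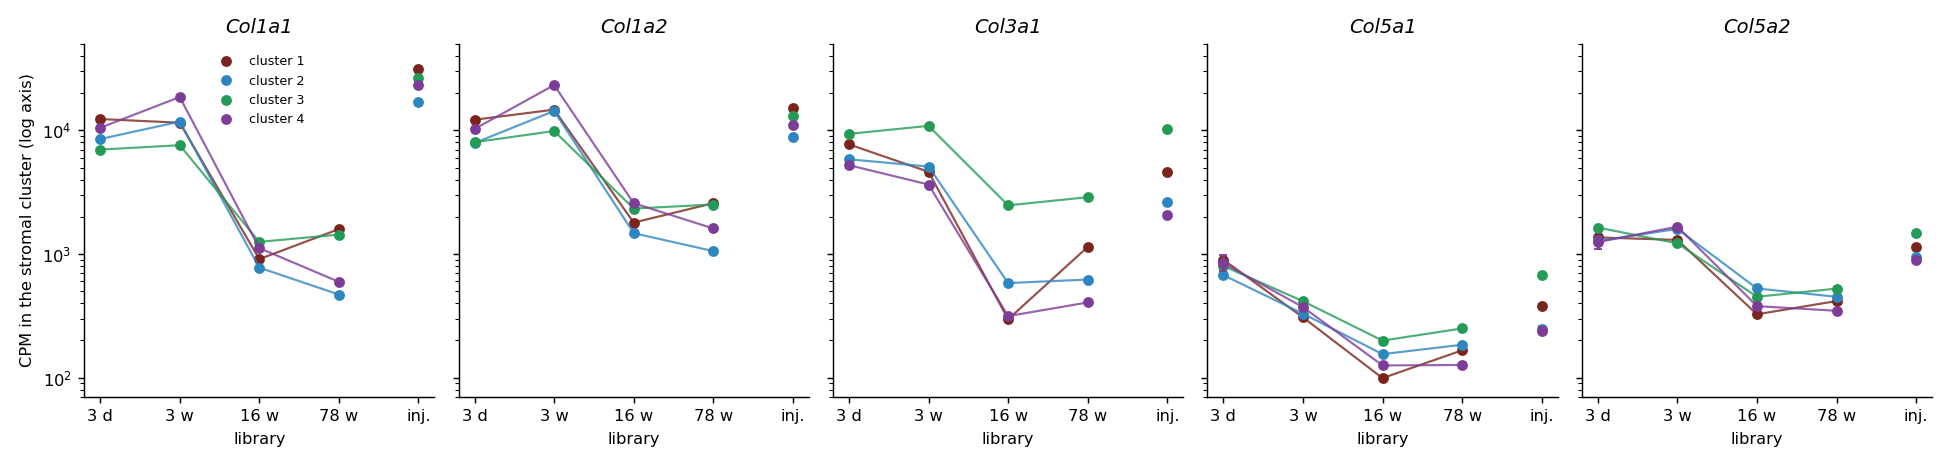
Level of each member in CPM on a log axis in stromal clusters 1 to 4 across the 5 libraries, 1 point per cluster and library, with lines joining the normal ages and bars for the 95% counting intervals. Cluster 3 has the highest Col3a1 level in every library, and cluster 1 has the steepest difference in Col3a1 between 16 w and 78 w, from 297 to 1141 CPM.

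Within the stromal class the highest cells held a larger share of each member in adult and aged discs than at 3 d or 3 w. The median stromal cell held 8701 CPM of Col1a1 at 3 d, 8706 at 3 w, 544 at 16 w, 281 at 78 w and 15723 in the injured library. For Col3a1 the median cell held 7023, 3399, 174, 248 and 2669 CPM. The median Col1a1 level was therefore lower at 78 w than at 16 w although the class level hardly differed. The 10% of cells with the highest Col1a1 held 24.2% of its summed per-cell CPM at 3 d, 29.4% at 3 w, 38.1% at 16 w, 59.9% at 78 w and 34.0% in the injured library. For Col3a1 these shares were 23.1%, 33.6%, 60.5%, 63.4% and 36.4%. The shares of Col5a2 stayed between 21.1% and 33.2% and those of Col1a2 between 21.4% and 42.4%, so the range over libraries was narrowest for Col5a2. Col5a1 was at 24.7%, 29.4%, 37.9%, 37.6% and 41.1%, highest in the shallow injured library. These shares are from unthinned cells and rise with counting error where a cell holds few UMIs. How much of the difference between libraries this makes was not tested.

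Clusters 1 and 3 made up 27.9% and 14.2% of stromal cells at 78 w. The 833 aged stromal cells with the highest Col1a1 lay in cluster 1 in 46.9% of cases and in cluster 3 in 27.9%. Beside 13.7-fold more Col1a1, by which they were chosen, they had 9.38-fold more Col3a1 than the other aged stromal cells, 5.64-fold more Col1a2, 2.69-fold more Col5a1 and 2.63-fold more Col5a2. At 16 w the corresponding cells had 3.90-fold more Col3a1 and 3.07-fold more Col1a2. The aged cells with the most Col1a1 thus also had more Col3a1 as a group. The aged cells with the most Col3a1 were spread otherwise, with 29.1% in cluster 1 and 49.1% in cluster 3. The cells chosen by Col1a1 held 5.28% scored doublets against 7.55% in the rest, and a median of 11236 UMIs against 9699. Osteoblast markers over the whole stromal class summed to 22.2 CPM at 78 w and to between 3.80 and 6.20 CPM in the other libraries. Chondrocyte markers summed to 418 CPM at 78 w and 338 CPM in the injured library, against 155 to 183 CPM in the others. The part of either in this spread, or in the aged and injured levels, was not tested. Over cells thinned to 1000 UMIs, Pearson's r between Col1a1 and Col1a2 was 0.600 at 3 d, 0.789 at 3 w, 0.405 at 16 w, 0.519 at 78 w and 0.739 in the injured library, while that between Col5a1 and Col5a2 lay between 0.045 and 0.171. Between Col1a1 and Col3a1, r was 0.270 at 16 w and 0.480 at 78 w. These are descriptions over the cells of 1 library each, and low counts lower them.

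After thinning each cell to 1000 UMIs, 45.0% of stromal cells had a Col1a1 UMI at 16 w (exact binomial interval 43.9% to 46.2%) and 33.1% at 78 w (32.1% to 34.1%), against 98.9% at 3 d, 96.1% at 3 w and 96.9% in the injured library. Col3a1 went the other way between adult and aged cells, with 27.4% at 16 w (26.4% to 28.4%) and 33.9% at 78 w (32.9% to 34.9%). Macrophages, which should lack both genes, had a Col1a1 UMI in 5.61% of thinned cells at 16 w and 5.61% at 78 w, and a Col3a1 UMI in 5.61% and 2.11%. At 3 d and 3 w the Col1a1 share of thinned macrophages was higher, at 48.2% and 23.6%. The stromal shares of the normal discs lay above the background of their own library. In the injured library 67.6% of thinned macrophages held a Col1a1 UMI, so a share there is mostly uninformative about which cells make it. Cells under 1000 UMIs were left out, 303 stromal cells in the injured library and at most 31 in each other library, and median depths at 16 w were 9572 UMIs for stromal cells and 10032 for macrophages. Unthinned, 88.9% of stromal cells at 16 w and 78.8% at 78 w had a Col1a1 UMI, and 69.8% and 75.7% a Col3a1 UMI.

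Synovial lining cells, the Prg4-expressing surface layer of the joint, carried less collagen I than stromal cells and relatively more collagen III. Col1a1 in lining cells was at 3999 CPM at 3 d, 2449 at 3 w, 445 at 16 w, 269 at 78 w and 8666 in the injured library. Col3a1 was at 5424, 2653, 1063, 678 and 3393 CPM, which was 64.9%, 51.5%, 174%, 67.7% and 75.4% of the stromal level of the same library. Lining cells thus passed the stromal class as a whole in Col3a1 at 16 w and in no other library. At 16 w stromal cluster 3 on its own was above the lining cells in Col3a1. Lining Col5a2, at 113%, 49.0%, 88.5%, 78.3% and 91.0% of the stromal level, came closer to stroma than lining Col1a2, at 18.0% to 38.4%. The median over 13 stromal genes outside the list was 25.2%, 22.9%, 29.7%, 15.8% and 30.2% in lining cells. Stromal RNA in lining barcodes was not separated from expression by the lining cells themselves. Osteoblast markers in the lining class summed to 144, 601, 153, 233 and 173 CPM, against at most 22.2 CPM in stromal cells. One of them, Bglap2, was among the leading genes of the lining cluster. The part of these markers in the lining levels was not tested. Col3a1 gave 1.36 UMIs for each Col1a1 UMI in lining cells at 3 d, 1.08 at 3 w, 2.39 at 16 w (2.18 to 2.62), 2.52 at 78 w (2.36 to 2.68) and 0.391 in the injured library. The lining class held 90 cells at 16 w and 81 at 3 w, and its 16 w value rested on cells from the joint clustering, since clustering that library on its own gave a ratio of 0.796.

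Mural cells, the smooth muscle cells and pericytes of vessel walls, also leaned to collagen III. Their Col3a1 was at 3418 CPM at 3 d, 2173 at 3 w, 956 at 16 w, 668 at 78 w and 2684 in the injured library. Col1a1 in the same cells was at 2591, 3020, 350, 329 and 7785 CPM. Mural Col3a1 was at 156% of the level of the whole stromal class at 16 w, though below that of stromal cluster 3. In the other libraries it was at 40.9% to 66.7% of the class level. The median over the same 13 stromal genes was 19.7% to 24.5% in mural cells. The highest of them was Tnmd at 3 d, 16 w and 78 w, at 81.4%, 108% and 87.3%. At 3 w and in the injured library it was Prrx1, at 54.8% and 75.5%. Between 34.1% and 72.0% of mural Col1a1 UMIs lay in barcodes scored as doublets, against 14.2% to 46.7% of mural Col3a1 UMIs. Without those barcodes Col3a1 gave 2.02 UMIs for each Col1a1 UMI at 3 d, 1.70 at 3 w, 3.55 at 16 w, 3.26 at 78 w and 0.535 in the injured library, each above the value with all barcodes. The doublet score could itself rise with collagen UMIs, since the members were not left out of it. When mural cells were gated cell by cell on markers instead of by cluster, the Col3a1 to Col1a1 ratio at 16 w was 0.888. That gate took 752 cells at 16 w, among them all 240 of the mural cluster, so most of them lay outside it.

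Endothelial cells held the 5 chains at 15.7% to 32.3% of the stromal level in every library, and macrophages at 9.76% to 40.0%. Stromal genes other than the 5 chains gave like figures, as medians over 13 genes such as Dcn, Fmod, Comp and Chad. These medians were 18.2% to 24.1% in endothelial cells and 12.2% to 34.6% in macrophages. Scored doublets made up 9.47% to 20.4% of endothelial barcodes and held 52.9% to 95.6% of their Col1a1 UMIs. In macrophages 14.9% to 23.5% of barcodes were scored doublets and held 33.9% to 77.0% of Col1a1 UMIs. Most Col1a1 of these classes in normal discs thus lay in the barcodes with the highest doublet scores. The members were not left out of that score, so a barcode could score high partly through its collagen UMIs.

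Without those barcodes endothelial Col1a1 was at 1457 CPM at 3 d, 396 at 3 w, 17.1 at 16 w, 28.5 at 78 w and 2750 in the injured library. Endothelial Col5a2 was at 225, 105, 53.1, 64.6 and 189 CPM and exceeded Col3a1 in the adult and aged discs, where Col3a1 was at 15.9 and 33.7 CPM. For each Col3a1 UMI these cells held 3.34 Col5a2 UMIs at 16 w (2.34 to 4.86) and 1.92 at 78 w (1.49 to 2.47), against 0.665 and 0.416 in stromal cells without scored doublets. With all barcodes endothelial Col5a2 and Col3a1 lay close at 16 w, at 135 and 129 CPM. At 78 w their order turned, at 125 and 177 CPM. Relative to stroma and with all barcodes, Col5a2 was the member closest to the stromal level in endothelial cells of every library, at 29.2% at 3 d, 23.0% at 3 w, 32.3% at 16 w, 29.1% at 78 w and 27.2% in the injured library. Macrophages without scored doublets were at 52.4 CPM of Col1a1 at 16 w, 35.4 at 78 w and 7596 in the injured library. The remaining Col1a1 level was highest in the injured library in both classes, as it was in stromal cells, and free RNA and unscored doublets were not separated from expression by the cells themselves.

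**Figure D4:**
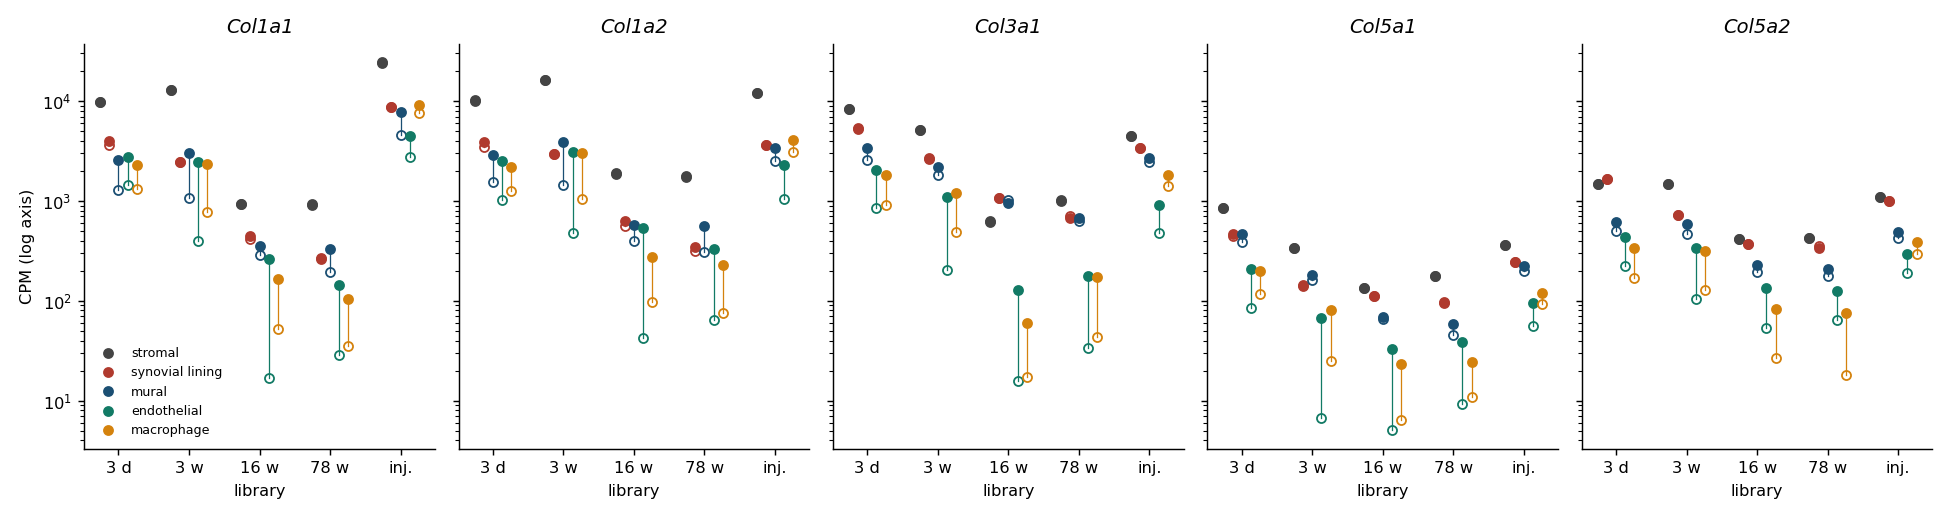
The level in CPM on a log axis is plotted by library in 5 panels, 1 for each gene, with colours for the 5 cell classes, filled points for all cells and open points, joined to them by a line, without scored doublets. Endothelial Col1a1 stands at 261 CPM (filled) and 17.1 CPM (open) at 16 w, while the filled and open stromal points nearly coincide.

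Genes that act on these chains did not follow them as a group. The 15 genes of collagen chain modification, the hydroxylases, glycosyltransferases and chaperones that act on procollagen in the endoplasmic reticulum, had 1 member at least 2-fold lower at 16 w than at 3 w, Plod1, 0 higher and a median log2 ratio of -0.14. For this and the further lists, 5.79% of all genes were lower at 16 w than at 3 w and 5.21% higher, with a median of -0.10. Their larger difference lay between 3 d and 3 w, where 6 of 15 were lower and 1 higher with a median of -0.69, in a comparison where 18.3% of all genes were lower and 16.7% higher with a median of -0.01. Serpinh1, the collagen-specific chaperone HSP47, was at 1055 CPM at 3 d, 332 at 3 w, 394 at 16 w, 511 at 78 w and 754 in the injured library. It was 2.27-fold higher in the injured library than at 3 w, where the CPM of Col1a2, Col3a1 and Col5a2 were lower. Plod2, which hydroxylates telopeptide lysines for cross-linking, was 4.03-fold higher at 3 w than at 3 d.

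Of 7 genes of procollagen export, Sparc was lower at 16 w than at 3 w and none was higher, with a median of -0.31. Sparc, a collagen-binding matricellular protein, was at 11363 CPM at 3 d, 26712 at 3 w, 2871 at 16 w, 3615 at 78 w and 14330 in the injured library, highest at 3 w and next in the injured library as Col1a2 was. For propeptide removal 1 of 5 genes with enough UMIs was lower at 16 w, Adamts2, with a median of -0.04. Among 5 lysyl oxidases, the enzymes that start cross-linking, Lox was lower, at 134 CPM against 360 CPM at 3 w, and it stayed at 105 CPM in the injured library. Loxl1 was at 271 CPM at 3 d, 43.6 at 3 w, 24.8 at 16 w, 20.7 at 78 w and 92.9 in the injured library, 3.75-fold above 16 w. The injured library therefore had high collagen chains with Lox near its adult level and Loxl1 above it.

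Of the other fibrillar chains, Col11a1, a partner of cartilage and tendon fibrils, was likewise highest at 3 w and in the injured library, at 145, 297, 72.6, 73.4 and 225 CPM in the order of 3 d, 3 w, 16 w, 78 w and injured. Col2a1, the main cartilage chain, did not, at 9.59, 24.6, 56.9, 161 and 184 CPM. At 16 w against 3 w, 2 of 5 such chains were lower, Col11a1 and Col11a2, and 2 higher, Col2a1 and Col27a1, with a median of -0.80. Of 12 fibril-associated genes 1 was lower, Col6a1, and 0 higher, with a median of -0.13. The proteoglycan gene Dcn, whose product binds collagen fibrils, was lowest at 3 d and highest at 16 w, at 3247 CPM at 3 d, 21696 at 3 w, 27862 at 16 w, 26278 at 78 w and 11244 in the injured library. Of 7 genes of collagen breakdown, uptake and its control with enough UMIs, 3 of them protease inhibitors of the Timp family, 3 were lower and 0 higher, with a median of -0.40. The lower ones were the gelatinase gene Mmp2, the cathepsin K gene Ctsk and the inhibitor gene Timp1. Of 7 collagen receptors 0 were lower or higher, with a median of 0.35.

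In the injured against the 16 w discs, at least 2-fold higher were 0 of 15 chain modification genes, 1 of 7 export genes, 0 of 5 propeptide genes, 1 of 5 lysyl oxidases, 4 of 5 other fibrillar chains, 4 of 12 fibril-associated genes, 3 of 7 genes of breakdown, uptake and its control and 0 of 7 receptors. Over all genes 5.64% of 11276 were higher and 14.5% lower. The list medians on the log2 scale were 0.36, 0.09, 0.87, 0.22, 1.42, 0.53, 0.58 and -0.46, against 2.68 for the members and -0.31 for all genes. Mmp2, a gelatinase, was 6.08-fold higher, Sparc 4.99-fold, Ctsk 4.01-fold and the inhibitor gene Timp1 2.93-fold. The receptor chain genes Itga1 and Itga2 were lower, at ratios of 0.296 and 0.267, as were Loxl4 at 0.360 and Dcn at 0.404. Every one of these lists thus had a smaller median difference than the 5 chains.

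**Figure D5:**
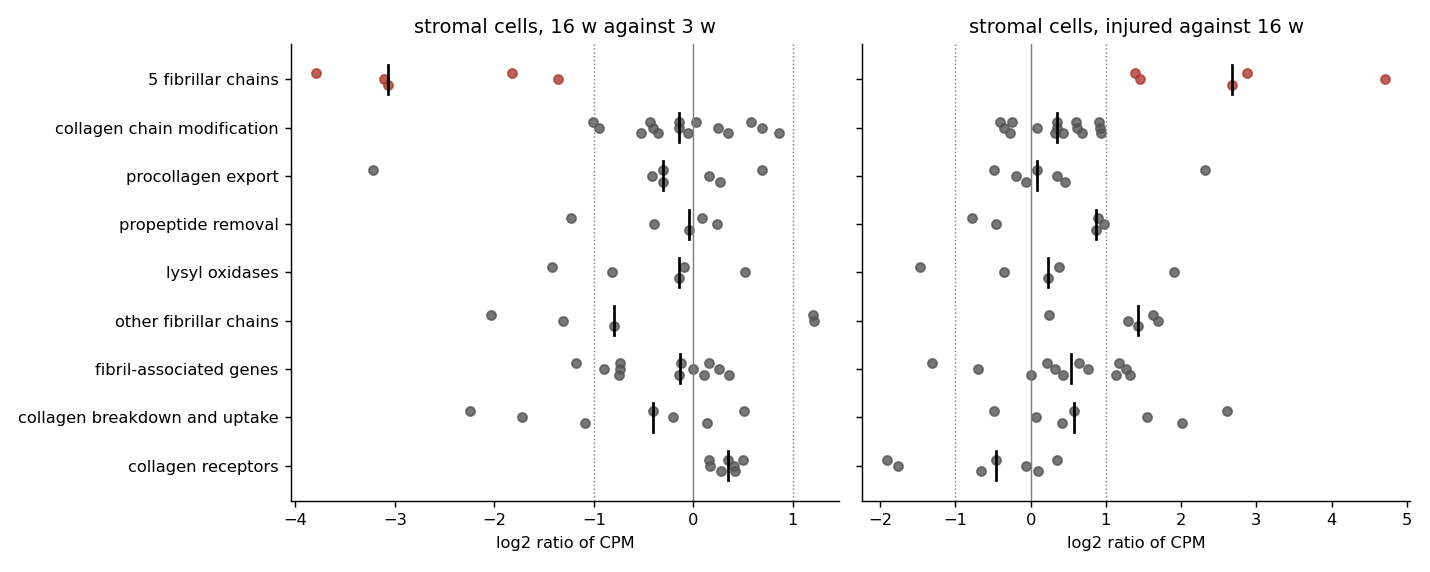
Log2 ratios of stromal CPM are plotted for the 5 members and for the genes with enough UMIs in 8 lists of genes that act on, bind or accompany these collagens, at 16 w against 3 w in one panel and injured against 16 w in the other, with bars at the list medians and dotted lines at 2-fold. The members' medians are -3.07 and 2.68, beyond the median of every list.

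Over 25 points, the 5 classes in the 5 libraries, the pattern of each gene was compared with 14949 others by Pearson's r of log2(CPM + 1), as a description of points that share libraries and depths. The gene most like Col1a1 was Col1a2 with r = 0.96, followed by Mmp2 (0.89), Sparc (0.88), Col3a1 (0.86) and Col5a2 (0.84). For Col1a2 the order after Col1a1 was Sparc (0.92), Col5a2 (0.87), Col3a1 (0.87) and Col11a1 (0.87). Col3a1 was most like Col5a2 (0.94), Col5a1 (0.93), Col6a1 (0.91), C1qtnf6 (0.90) and the endoplasmic reticulum retrieval receptor gene Kdelr3 (0.90). Col5a1 was most like Kdelr3 (0.95), Col5a2 (0.94), Col3a1 (0.93), Col16a1 (0.93) and Dclk1 (0.92). Col5a2 had Col3a1, Col5a1, Col6a1 (0.93), Col6a2 (0.92) and Kdelr3 (0.92) nearest to it. The collagen I genes were thus nearest to each other, and the collagen III and V genes to one another and to collagen VI genes or Kdelr3. In endothelial cells and macrophages, however, the chains and other stromal genes stood at like shares of the stromal level. The part of these points in r was not tested.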

How the data were processed

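The deposited files held raw UMI counts per gene and cell barcode in 5 matrices, 1 per library, made by the authors with Cell Ranger (4.0.0 in the file headers, 3.1 in the submitters' processing notes) on mm10, from 10x 3′ libraries. Cells had to hold over 200 UMIs, with no more than 30% of them mitochondrial. Libraries were integrated and clustered in Seurat 5.3.0 (R 4.3.3, Matrix 1.6.5) with 2000 variable genes, 30 dimensions and resolution 0.2, leaving out the 5 members and 69 listed genes. A cluster was named where at least 3 markers of a class stood out at 2-fold, erythroid cells needed Alas2, and the stromal name was withheld from clusters with few UMIs or other leading markers; this rule was set after the clusters were seen.

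UMIs were summed per class and library and divided by all UMIs of that class (CPM). Levels were given with exact Poisson intervals, ratios with exact intervals for a ratio of counts and shares with exact binomial (Clopper-Pearson) intervals, at 95% (scipy 1.17.1, numpy 2.4.6, pandas 2.3.3, Python 3.11.15). Genes with at least 100 UMIs in the higher class entered the counts of 2-fold differences. The code for ratios was checked on simulated counts with known folds. The doublet score was Scrublet's in scanpy 1.11.5. Its automatic threshold marked at most 2 cells per library, so the highest scores, at 0.8% per 1000 cells, were used, a choice made after seeing the data. Figures were drawn with matplotlib 3.10.9.

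The genes named were the members, the listed genes, class markers and the 5 genes most like each member by Pearson's r. The members, lists and comparisons were chosen with earlier results of these data known. The members' ratios between libraries and between chains, by class, and the stromal counts past 2-fold were recomputed under other settings. These were resolution 0.5, each library clustered on its own, a marker gate per cell, no doublets and stricter cell filters. Further settings were equal weight of each cell or stromal cluster and, added after seeing the data, stromal clusters 1 and 3 only. Median-ratio scaling was applied to ratios between libraries and counts, and a 1.5-fold line to counts only. Gene lists, per-cell shares, ranks, correlations and values of single stromal clusters were not recomputed. RefSeq promoters were matched for 3 of the 5 members.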

Additional observations from a re-analysis of the deposited data

Results flagged for a closer look

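5 pairs of ratios between libraries went opposite ways by at least 1.5-fold in different cells of the same disc. None of these differences was tested, since each condition had 1 library. Col3a1 at 78 w against 16 w stood at a ratio of 1.64 in stromal cells and 2.90 in macrophages but 0.638 in synovial lining cells. The macrophage ratio rests on 508 and 77 UMIs, of which 80.3% at 78 w and 79.2% at 16 w lay in scored doublets. Lining cells numbered 90 at 16 w. Col1a1 at 78 w against 16 w stood at 1.75 in stromal cluster 1, 0.606 in cluster 2 and 0.534 in cluster 4. Col5a1 in injured against 3 w discs stood at 1.64 in cluster 3 and 0.644 in cluster 4.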

How the results depend on the processing

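Counts of members at least 2-fold apart in stromal cells stayed as reported in most settings. The shares of all genes were not recounted in these settings, nor at the 1.5-fold line. With a 1.5-fold line, 1 member was higher (Col1a2) and 2 lower (Col3a1 and Col5a1) at 3 w against 3 d, 1 higher at 78 w against 16 w (Col3a1) and 1 higher in injured against 3 w (Col1a1). With clusters 1 and 3 only, 1 was higher at 78 w against 16 w and 1 in injured against 3 w. Equal weight per cell and median-ratio scaling each gave 1 higher in injured against 3 w. The cause was not tested, beyond what each setting changes by construction. No stromal ratio of at least 2-fold turned direction, and 5 of 55 moved by over 1.5 times, all with clusters 1 and 3 only, by up to 1.71 times. Col1a1 at 78 w against 16 w, near 1 in the whole class, was then 1.56. In the same setting the ratios of 78 w to 3 d were 0.156 for Col1a1 and 0.205 for Col3a1, and at 78 w Col5a1 to Col1a1 was 0.127 and Col5a2 to Col3a1 0.261. Of 33 stromal ratios of at least 2-fold, 3 crossed the line in some setting. Col1a1 to Col1a2 at 16 w, 0.497 as reported, was 0.502 without doublets, 0.512 with equal weight per cell and 0.514 with clusters 1 and 3 only. It was 1.95 in the injured library at resolution 0.5, and Col3a1 to Col1a1 at 3 w was 0.572 with clusters 1 and 3 only. Over all classes, 11 of 173 such ratios crossed it without doublets and 16 with the marker gate. Col3a1 to Col1a1 at 16 w reversed in mural cells with the marker gate per cell (0.888, in 752 cells against 240 by cluster) and in lining cells with each library clustered on its own (0.796). That clustering gave no lining cells at 3 w, so no value there. Without doublets, 66 of 275 values over all classes moved by over 1.5 times, none of the 55 stromal ones among them. Depth limits lining, mural and macrophage values, with under 100 UMIs of Col3a1 in macrophages at 16 w.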
